A study of Mus musculus with 9 samples.

Results

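Lungs given an adenovirus that carries mouse IL-4 were compared with lungs given an adenovirus without a cytokine gene. The comparison took 3 arrays titled AdV-IL4 and 3 titled AdV-NULL, 6 of the 9 arrays of the series, and 45037 of the 45101 probe sets, all that are not bacterial or other controls. Each array held whole-lung RNA of 1 female C57BL/6 mouse aged 14 weeks, 14 days after replication-deficient virus was given into the trachea. Every group used here received an adenovirus, so the control carries whatever the infection itself does. The remaining 3 arrays, titled AdV-IL4d2, came from mice given a virus for the splice variant IL-4d2, and they are used here only where stated. The promoter that drives the cytokine gene in the virus and the viral dose are not given in the sources used here. IL-4 mice and control mice below mean the compared groups, single mice are written as Null-1, IL4-1 or IL4d2-1 by the numbers of their titles, and signal means the deposited array signal on a linear scale.

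IL-4 is made by type 2 helper T cells, mast cells and basophils. It binds a receptor that holds the Il4ra chain, and Janus kinases on that receptor phosphorylate Stat6, which enters the nucleus as a dimer and binds DNA. In the lung this pathway is known for alternative activation of macrophages, mucus production by airway epithelium, chemokines that draw eosinophils and T cells, and antibody class switching in B cells.

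Il4 itself had signals of 43.1, 15.8 and 71.6 in the control mice and 379, 301 and 335 in the IL-4 mice. The lowest IL-4 mouse was above the highest control mouse, and the log2 difference was 2.69 ± 0.36 (SE, 3 arrays a group, limma adjusted p = 0.00227). Il4ra had signals of 532, 536 and 579 against 579, 706 and 559, and Stat6 had 1971, 2109 and 2027 against 2287, 2230 and 2146. The groups overlapped for Il4ra and did not for Stat6, and neither passed the test (log2 differences 0.15 ± 0.12 and 0.12 ± 0.07, limma adjusted p = 0.6 and 0.433). Both differences were below 0 when arrays were scaled to added control transcripts, which are described next.

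The lung label was borne out by lung-defining genes, with Sftpc, the surfactant protein of alveolar type 2 cells, between 25944 and 41165 and Scgb1a1, the secretory protein of club cells, between 34826 and 55926 on the 6 arrays. Null-1 and IL4-2 stood apart in muscle genes. The mean log2 signal of 28 skeletal muscle genes was 11.34, 8.54 and 7.21 in control mice 1, 2 and 3. That of 26 heart muscle genes was 7.07 in IL4-2, against 8.39 and 8.44 for the other IL-4 mice. Gapdh probe sets at the 3' and 5' ends of the transcript give a ratio that rises with RNA degradation, and it was 1.28 ± 0.284 in control and 1.71 ± 0.143 in IL-4 mice (SD, n = 3, exact two-sided permutation p = 0.1, the smallest that 3 against 3 arrays allow). Its part in the results was not tested. Added bacterial transcripts gave more signal in the IL-4 group, and scaling the arrays to them moved the median log2 difference of all probe sets from 0.01 to −0.37 (hybridisation controls) or −0.67 (poly-A controls). Every direction below is relative to the trimmed mean signal, which the deposited arrays share. The medians given for lists are printed on these other scales, hybridisation first, where they change sign. Counts of called members moved on these scales too, and are given for some lists. The labels say only that the arrays are of separate mice, and they name no batch.

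limma called 1146 of 18193 genes as changed, with adjusted p-values under 0.05 (6.3%). In IL-4 mice 589 rose (3.24%) and 557 fell (3.06%), with 1 probe set standing for each gene. Every count of list members below is to be read beside these shares of all genes. A gene may be in more than 1 list and is then counted in each. Of the called genes, 275 changed at least 2-fold (1.51% of all genes), 177 of them higher and 98 lower. Genes of the macrophage, B cell, plasma cell and matrix lists, which the known effects of IL-4 would bring up first, made up 75 of the 1146. The other 1071 comprised 522 that rose and 549 that fell, and 769 of the called genes were in none of the 78 gene lists. At the level of probe sets, 1895 of 45037 were called (4.21%), 1025 of them higher (2.28%) and 870 lower (1.93%), so that 54.1% of the calls were higher. That share was 66.6% when the variance was modelled without a trend, 6.0% after scaling to the hybridisation controls and 0.9% after scaling to the poly-A controls. The count of called genes fell to 521 without Null-1, 681 without Null-3, 725 without IL4-2 and 313 with Null-1 and IL4-2 both left out. Of the 1146 genes, 420 were called in each of the 9 fits that left out 1 array.

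**Figure D1:**
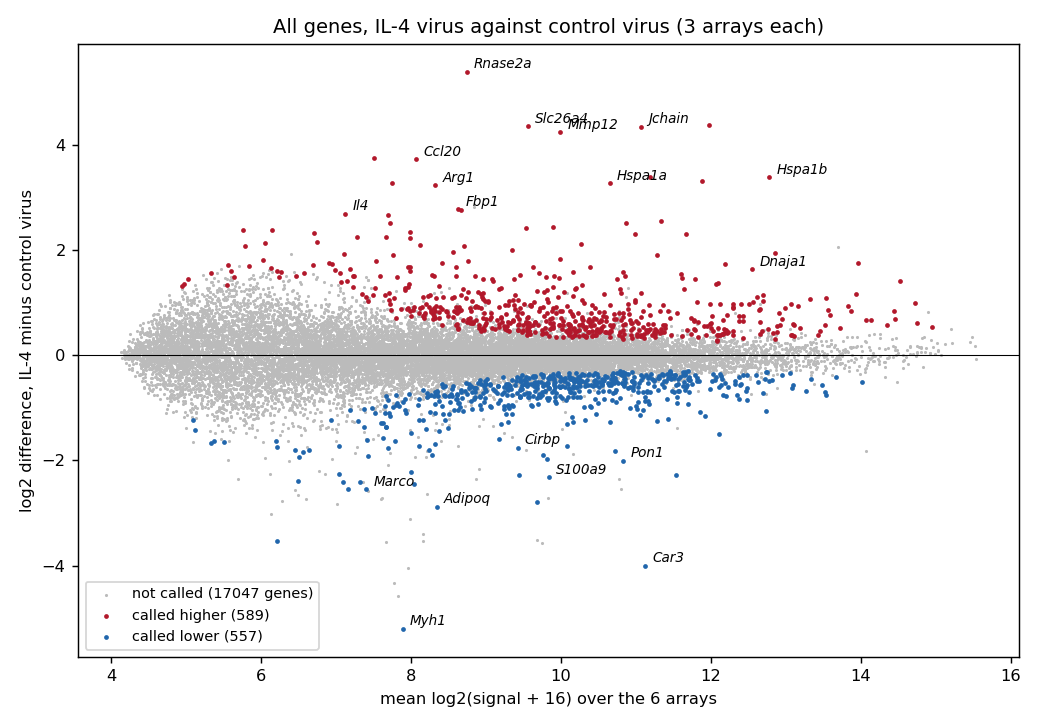
Each point is 1 of 18193 genes, with the mean log2(signal + 16) over the 6 arrays on the horizontal axis and the log2 difference between 3 IL-4 and 3 control arrays on the vertical axis; red and blue points are the 589 genes called higher and the 557 called lower by limma. Rnase2a (5.38) lies at the top, Myh1 (−5.20) at the bottom, and Hspa1b and Dnaja1 are among the bright genes that rose.

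The largest increases joined a ribonuclease, an anion exchanger, a protease, a chemokine and heat shock proteins. Rnase2a, of the eosinophil-associated ribonuclease family, had signals of 59.0, 80.9 and 24.1 in control mice and 2363, 3325 and 2639 in IL-4 mice. Slc26a4, the airway anion exchanger pendrin, went from 61.8, 403 and 128 to 4289, 3071 and 2957. Mmp12, the elastase of macrophages, went from 174, 395 and 150 to 5404, 4386 and 3583. For all 3 genes every IL-4 mouse lay far above every control mouse, and Null-2 was the highest control each time. The log2 differences were 5.38 ± 0.31, 4.35 ± 0.45 and 4.23 ± 0.30 (limma adjusted p = 1.11e-05, 0.000399 and 3.04e-05). Jchain, which links the units of secreted IgM and IgA, had 452, 588 and 372 in control mice and 5903, 12490 and 12140 in IL-4 mice, a log2 difference of 4.33 ± 0.34 (adjusted p = 6.31e-05). IL4-1 had the lowest Jchain signal of its group and was still above each control mouse. In RNA of a whole lung, more cells of a type and more RNA per cell cannot be told apart.

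Among the other genes with the 15 largest increases and groups that do not overlap, Ccl20, the ligand of Ccr6, had 30.3, 218 and 21.1 against 1016, 839 and 1022 (log2 difference 3.72 ± 0.51). Arg1, the arginine-cleaving enzyme of alternatively activated macrophages, had 107, 94.2 and 69.0 against 1351, 918 and 717 (3.22 ± 0.35). Fbp1, the gluconeogenic fructose bisphosphatase, had 114, 125 and 173 against 724, 1041 and 1403 (2.77 ± 0.24). The groups were separate for each, and Null-2 was again the highest control for Ccl20. Ubd, a ubiquitin-like modifier, rose by 2.50 ± 0.39, Ccl9, a CC chemokine, by 2.52 ± 0.24, and Gpnmb, a lysosomal membrane glycoprotein, by 2.43 ± 0.26. Chil4, a chitinase-like protein, rose by 3.39 ± 0.72 but lost its call without Null-1 (3.38), Null-3 (2.73) or IL4-1 (2.66). Cxcl9, a ligand of Cxcr3, rose by 2.76 ± 0.51 and lost its call without Null-1 (2.56).

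**Figure D2:**
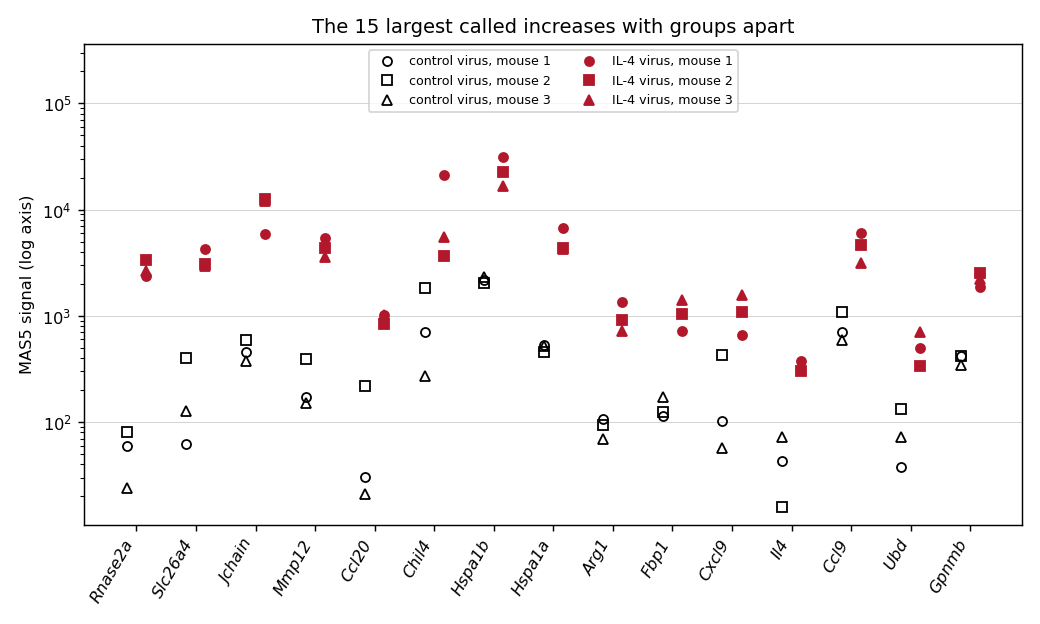
MAS5 signal on a log axis for the 15 called genes with the largest increase among those whose groups do not overlap, 1 point per mouse, open black for the 3 control mice and filled red for the 3 IL-4 mice. By that choice the 3 red points lie above the 3 black ones; the widest gap is that of Rnase2a, and the control points of Hspa1b and Hspa1a lie close together.

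Once the macrophage, B cell and matrix lists were set aside, further members of the 15 largest increases were Hsph1, Rgs16, Kcnn4, Dnase1l3 and Prg4. Rgs16, which shortens G protein signals, had 93.5, 51.0 and 203 against 688, 374 and 578, and it rose by 2.22 ± 0.38 on the probe set that stands for it. Of its 2 other probe sets, 1 gave a log2 difference of 1.80 and the other −0.16. Kcnn4, a calcium-activated potassium channel, rose by 2.34 ± 0.45 and lost its call without Null-3 (2.21) or IL4-1 (2.26). Dnase1l3, a secreted DNase, rose by 2.32 ± 0.53, and its call was lost without Null-1 (2.07), Null-2 (1.86), IL4-1 (2.49), IL4-2 (2.29), IL4-3 (2.17), or IL4d2-2 (2.32). Prg4, the lubricating proteoglycan, rose by 2.16 ± 0.53 and was called in 1 of the 9 fits with an array left out, that without Null-1. Its value was 1.87 and 1.75 without Null-2 and Null-3, 1.86, 2.26 and 2.35 without IL4-1, IL4-2 and IL4-3, and 2.16 without any IL-4d2 mouse.

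Promoter sequence was looked at for letters that Stat6 is known to bind, TTC and GAA with 4 bases of any kind between them, a pattern that reads the same on both strands. In the 250 bases before the annotated start, 705 of 14452 genes with a promoter in RefSeq (assembly GRCm38.p6) held a match, or 4.88%. Of the genes called higher, 32 of 448 held 1 (7.14%), and of those called lower, 18 of 446 (4.04%). With 3 bases between TTC and GAA the shares were 6.3%, 6.47% and 5.16%. These are descriptions of letters, without a test, and no match says only that the letters are not in this window. Rnase2a and Slc26a4, the genes with the largest increases, held no match to the longer spacing. The sequences of 4 called genes that held it are shown, since they encode a chemokine, an alarmin and myeloid surface receptors of groups described below. Each runs 5′ to 3′ on the strand of the gene and ends at the base before the start, with the match in capitals. They cover chr8:94810203-94810452 on the plus strand (Ccl17), chr19:29924863-29925112 on the plus strand (Il33), chr6:129472780-129473029 on the minus strand (Clec7a) and chr7:128129300-128129549 on the plus strand (Itgax). The match begins 154, 36, 131 and 127 bases before the start, in that order.
Ccl17: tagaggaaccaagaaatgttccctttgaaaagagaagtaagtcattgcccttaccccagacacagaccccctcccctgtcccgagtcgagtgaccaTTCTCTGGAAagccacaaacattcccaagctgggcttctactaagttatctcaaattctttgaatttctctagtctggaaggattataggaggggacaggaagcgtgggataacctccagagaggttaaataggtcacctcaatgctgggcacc
Il33: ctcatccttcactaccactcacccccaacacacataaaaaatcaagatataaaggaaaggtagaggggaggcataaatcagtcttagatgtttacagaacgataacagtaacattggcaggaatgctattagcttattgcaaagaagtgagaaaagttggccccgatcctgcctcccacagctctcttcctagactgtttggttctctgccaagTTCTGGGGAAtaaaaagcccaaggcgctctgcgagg
Clec7a: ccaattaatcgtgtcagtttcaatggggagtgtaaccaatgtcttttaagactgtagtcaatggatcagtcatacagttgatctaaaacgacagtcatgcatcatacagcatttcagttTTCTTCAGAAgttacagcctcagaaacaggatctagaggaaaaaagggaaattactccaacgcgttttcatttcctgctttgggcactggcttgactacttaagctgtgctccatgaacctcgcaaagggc
Itgax: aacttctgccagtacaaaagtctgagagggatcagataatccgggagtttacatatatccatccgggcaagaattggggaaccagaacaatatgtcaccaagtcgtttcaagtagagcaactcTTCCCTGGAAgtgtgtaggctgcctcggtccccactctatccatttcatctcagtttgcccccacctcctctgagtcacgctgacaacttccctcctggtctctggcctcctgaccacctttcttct

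All 4 rose. Ccl17, a ligand of the receptor Ccr4 of type 2 helper T cells, had 487, 901 and 384 in control and 1488, 1580 and 1748 in IL-4 mice (log2 difference 1.51 ± 0.25). Il33, an alarmin that activates innate lymphoid cells and mast cells, had 2352, 3242 and 2487 against 7477, 6442 and 6567 (1.35 ± 0.12). Clec7a, the beta-glucan receptor, had 1885, 4099 and 2146 against 8098, 9108 and 8306 (1.73 ± 0.25). For each gene the IL-4 mice were, in proportion, closer to each other than the control mice were, and Null-2 was the highest control. Itgax, an integrin chain of dendritic cells and alveolar macrophages, rose from 916, 1301 and 932 to 3225, 3441 and 2805 (1.59 ± 0.15, limma adjusted p = 0.000256).

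Heat shock proteins hold other proteins in a foldable state. Of 28 measured members of the list, 14 rose and 0 fell, against 3.24% and 3.06% of all genes. The list's median log2 difference was 0.57, and −0.22 after scaling to the poly-A controls, beside a median of −0.01 over all genes. After scaling to the hybridisation controls 7 rose and 4 fell, and after scaling to the poly-A controls 7 rose and 11 fell. Each of the 14 was called in every fit with 1 array left out, and 13 were called with Null-1 and IL4-2 both left out. Hspa1b, an inducible Hsp70, had signals of 2159, 2015 and 2320 in control mice and 30940, 22380 and 16590 in IL-4 mice. Hspa1a, its near-identical copy, had 532, 456 and 521 against 6643, 4333 and 4234, and probe sets may not tell the 2 apart. The control mice differed little from each other, and IL4-1 was the highest for both. The log2 differences were 3.37 ± 0.22 and 3.26 ± 0.17 (limma adjusted p = 1.74e-05 and 7.95e-06).

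Their partners moved with them. Dnaja1, an Hsp40 co-chaperone, went from 3284, 3321 and 3598 to 10660, 11290 and 9799, and Dnajb1, another, from 1249, 1233 and 1344 to 6245, 4525 and 3931. Hsph1, the exchange factor Hsp110, went from 1654, 1253 and 1460 to 9744, 6454 and 6025. These groups were separate, with small spread among the control mice, and the log2 differences were 1.63 ± 0.09, 1.90 ± 0.14 and 2.31 ± 0.16. Co-chaperones of Hsp90 were higher as well, Chordc1 by 1.47 ± 0.11, Stip1 by 1.48 ± 0.13 and Ahsa2 by 1.47 ± 0.11. The abundant Hspa8, the constitutive Hsp70, rose by 0.99 ± 0.12 and Hsp90aa1, the inducible Hsp90, by 0.84 ± 0.12. The small heat shock protein Hspb1 rose by 0.97 ± 0.14. Among mitochondrial chaperones, Hspe1 rose by 0.83 ± 0.12, while Hspd1 at 0.72 ± 0.13 and the Hsp70 partner Bag3 at 0.74 ± 0.11 changed sign after scaling to the poly-A controls, to −0.08 and −0.06.

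Heat shock factor is known to bind repeats of GAA and its complement. The letters TTC, GAA and TTC, each 2 bases of any kind from the next, or GAA, TTC and GAA at the same spacing, which is the other strand, were searched after the values were seen. The pattern was in 50 of 14452 promoters (0.346%) and in 1 of 448 genes called higher (0.223%). Of the 14 heat shock members that rose, 12 had a promoter, and the 1 with a match was Hspe1. Its promoter is printed because it shows 2 overlapping matches, at chr1:55087898-55088147 on the plus strand, with capitals over both, which begin 89 and 84 bases before the start.
Hspe1: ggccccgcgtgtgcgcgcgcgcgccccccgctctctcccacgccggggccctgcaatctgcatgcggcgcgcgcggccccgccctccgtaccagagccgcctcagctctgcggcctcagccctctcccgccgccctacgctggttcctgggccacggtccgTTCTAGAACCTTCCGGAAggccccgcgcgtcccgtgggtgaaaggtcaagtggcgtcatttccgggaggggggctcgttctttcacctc

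Cirbp, the cold-inducible RNA-binding protein, was among the 10 bright genes that fell with the smallest p. It had signals of 1220, 1288 and 1236 in control mice and 356, 335 and 378 in IL-4 mice. Within each group the mice differed by little, and the log2 difference was −1.76 ± 0.09 (limma adjusted p = 7.95e-06). In the endoplasmic reticulum, where secreted proteins fold, 13 of 35 chaperones and folding factors rose and 0 fell, with a median of 0.27 (−0.18 after scaling to the hybridisation and −0.53 to the poly-A controls). Of the 13, 11 were called in every fit with 1 array left out and 10 rose with Null-1 and IL4-2 both left out. After scaling to the hybridisation controls 1 of the 35 rose and 0 fell, and after scaling to the poly-A controls 0 rose and 15 fell. Sdf2l1, a chaperone partner, had 404, 462 and 438 against 974, 975 and 968 (1.14 ± 0.11). Manf, a secreted stress protein of that compartment, had 2754, 3181 and 2723 against 5505, 5622 and 5936 (0.98 ± 0.09). Both were nearly equal among the IL-4 mice and separate from control. Creld2, another stress-induced protein of the compartment, rose by 0.96 ± 0.10. Hspa5, its main Hsp70, rose by 0.85 ± 0.11. Pdia4, a disulfide isomerase, rose by 0.79 ± 0.10, while its other probe set gave −0.05. Cacybp, a ubiquitin ligase adaptor outside all of these lists, rose by 1.25 ± 0.09.

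**Figure D3:**
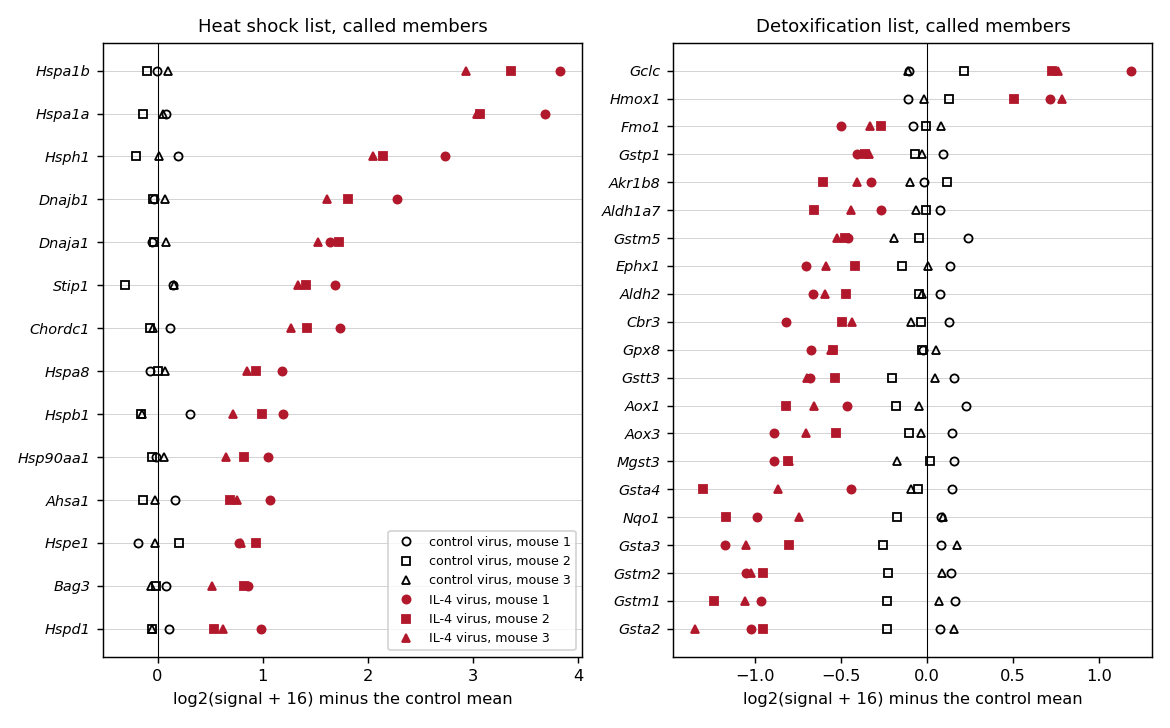
Each row is 1 called member of the heat shock list (left, 14 genes, all higher) or the detoxification list (right, 19 lower and 2 higher), with log2(signal + 16) minus the mean of the 3 control mice on the horizontal axis and 1 point per mouse. The 3 red IL-4 points lie to the right of the black control points for Hspa1b (3.37) and to the left for Gstm1 (−1.09); after scaling to the poly-A controls Hspd1, Bag3 and Hmox1 change sign.

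Many genes of the lysosome list and of the antigen presentation list rose, and Ctss and Lgmn are counted in both. Of 41 cathepsins and other lysosomal genes, 19 rose and 0 fell, with a median of 0.38 (−0.04 and −0.39 after scaling to the hybridisation and the poly-A controls). The count of those that rose was 12 when Null-1 or Null-3 was left out and 7 with Null-1 and IL4-2 both left out. After scaling to the hybridisation controls 3 rose and 1 fell, and after scaling to the poly-A controls 2 rose and 12 fell. Ctss, the cathepsin that trims the class II invariant chain, had 7410, 11220 and 7945 against 27960, 31250 and 28770 (log2 difference 1.75 ± 0.19). Acp5, an acid phosphatase of macrophages and osteoclasts, had 527, 594 and 333 against 1417, 1563 and 1312 (1.57 ± 0.18). The IL-4 mice lay within a narrow range for both, above each control. Psap, the precursor of sphingolipid activators, rose by 1.15 ± 0.14, Ctsc by 0.93 ± 0.16 and Ctsz by 0.91 ± 0.12. Tcirg1, a proton pump subunit, and Npc1, a cholesterol exporter, were higher by 0.73 ± 0.11 and 0.58 ± 0.09, and became −0.06 and −0.21 after scaling to the poly-A controls.

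Of 17 genes of MHC class II and antigen processing, 11 rose and 0 fell, with a median of 0.68 (−0.08 after scaling to the poly-A controls). It fell to 7 when Null-1 or Null-3 was left out and to 5 with Null-1 and IL4-2 both left out. H2-Ab1, a class II chain, had 3560, 6047 and 3600 against 9075, 9755 and 8670 (1.10 ± 0.17), and Ifi30, a thiol reductase of the antigen processing compartment, had 2222, 3012 and 2355 against 4960, 5459 and 4865 (1.02 ± 0.11). In both, Null-2 was nearest to the IL-4 mice without reaching them. H2-DMb2, which helps load peptides, rose by 0.95 ± 0.13. Of 26 complement genes, 8 rose and 0 fell (5 rose without Null-1, 4 with Null-1 and IL4-2 both left out), with a median of 0.15 that became −0.28 and −0.59 on the other scales. Among them C1qb, a chain of C1q, rose by 1.54 ± 0.21, Hc, complement C5, by 1.08 ± 0.13, and Itgb2, the shared chain of complement receptors, by 1.19 ± 0.14. The inhibitory Fc receptor Fcgr2b rose by 1.45 ± 0.15. Of 37 C-type lectins, 9 rose and 3 fell (1 fell without Null-1), with a median of 0.28 (−0.15 and −0.39 on the other scales). Of 20 dendritic cell genes, 9 rose and 0 fell, with a median of 0.55 (−0.16 after scaling to the poly-A controls), and 5 rose with Null-1 and IL4-2 both left out.

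Of 35 chemokines, 13 rose and 1 fell, with a median of 0.67 (−0.09 after scaling to the poly-A controls), and 4 rose with Null-1 and IL4-2 both left out. After scaling to the hybridisation controls 9 rose and 2 fell, and after scaling to the poly-A controls 7 rose and 9 fell. The 1 that fell, the platelet chemokine Ppbp, was not called without Null-2, Null-3, IL4-1 or IL4-2, while 2 fell without IL4d2-2. Ccl6, a CC chemokine of myeloid cells, was the brightest that is named here, at 3188, 5642 and 3005 against 14400, 15860 and 13390 (1.94 ± 0.21). Ccl8, which attracts type 2 T cells through Ccr8, had 346, 1225 and 445 against 3094, 2631 and 2007 (2.11 ± 0.35). Null-2 again stood above the other controls and below the IL-4 mice. Cxcl16, the ligand of Cxcr6, was higher by 0.50 ± 0.09, and −0.28 after scaling to the poly-A controls. Of 55 interleukins and receptors other than Il4, 7.27% were called, near the 6.3% of all genes. The median of that list was 0.12 (−0.29 and −0.58 on the other scales). Its 4 genes that rose were Il33, Il21r, Il2rb and Il7r, and 0 fell. Il21r rose by 1.64 ± 0.29 and Il7r by 1.06 ± 0.16. Of 31 genes of JAK-STAT signalling, 5 rose and 1 fell, with a median of 0.15 (−0.28 and −0.62 on the other scales). The 5 became 1 without Null-1, 2 without Null-3, IL4-1 or IL4-3, and 3 without IL4-2 or IL4d2-2, and the 1 lower, Irs1, was not called without Null-1, Null-3, IL4-1 or IL4-2. Pim1, a kinase induced through Stat factors, had 0.68 ± 0.10, and −0.11 after scaling to the poly-A controls.

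The interferon-induced list had 10 of 43 genes higher and 0 lower, with a median of 0.46 (−0.32 after scaling to the poly-A controls). Of the 10, Cxcl9, Cxcl10 and Cxcl11 are also counted among the chemokines. Leaving out Null-1 gave 3, Null-3 gave 5, IL4-1 or IL4-3 gave 4, and the count was 6 without IL4d2-2 and 2 with Null-1 and IL4-2 both left out. After scaling to the hybridisation controls 3 rose and 2 fell, and after scaling to the poly-A controls 1 rose and 13 fell. Among the receptors of the tumour necrosis factor family, Tnfrsf9, a costimulator of T cells, rose by 1.10 ± 0.19 and Tnfrsf25 by 1.18 ± 0.21. Regulators of the NF-kappa B pathway, chosen after their values were seen, were Malt1 (1.29 ± 0.17), Nfkbie (1.27 ± 0.19) and Tnfaip3 (0.92 ± 0.13), and each rose. Tnfaip3, a ubiquitin-editing inhibitor of that pathway, had 539, 769 and 552 against 1111, 1271 and 1144, with the groups apart. Batf, a transcription factor of activated lymphocytes, rose by 1.10 ± 0.18. Coagulation factors F10 and F7 rose by 1.36 ± 0.19 and 0.81 ± 0.13, in a list of 30 with 4 higher and 1 lower and a median of 0.09 (−0.23 and −0.48 on the other scales). There the 4 were 2 without Null-1, Null-2 or IL4-2, and the 1 lower, F13a1, was not called without Null-1, Null-2, IL4-3 or IL4d2-1.

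Genes of eosinophils other than the ribonucleases gave no uniform picture. Of 12 measured members, 2 rose, Rnase2a and its relative Rnase2b, and 1 fell, Adgre4. Rnase2b had 33.2, 72.5 and 55.4 against 187, 216 and 228 (1.73 ± 0.32). Adgre4, an adhesion receptor of myeloid cells, had 441, 589 and 452 against 156, 268 and 242 (−1.12 ± 0.22), and was not called without Null-2 (−0.99). The list's median log2 difference was 0.18 (−0.04 and −0.23 on the other scales).

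Ion transporters moved both ways. Of 37 genes of airway ion and water transport, 5 rose and 5 fell, with a median of 0.07 (−0.38 and −0.73 on the other scales), and the 5 that fell were 3 without Null-1 or Null-2. Besides Slc26a4, Slc5a1, the sodium-glucose transporter, rose from 152, 207 and 156 to 782, 542 and 536 (1.75 ± 0.20). Fxyd4 rose by 1.20 ± 0.22, Kcnj15, a potassium channel, by 0.88 ± 0.11, and Cftr, the chloride channel, was the other that rose. The myo-inositol transporter Slc5a3, outside the list and chosen after its values were seen, rose by 1.34 ± 0.16. Among those that fell, Fxyd1, a regulator of the sodium pump, had 2078, 1557 and 1657 against 544, 795 and 857 (−1.27 ± 0.16). Slc26a2, a sulphate transporter, fell by 0.79 ± 0.11 on the log2 scale and Scnn1b, a chain of the epithelial sodium channel, by 0.61 ± 0.10. The remaining list members that fell were Aqp5, a water channel (−0.38 ± 0.09), and Car3, which is described below with muscle and fat genes. So the 2 members of the Slc26 family that are named here went in opposite directions, with separate groups in both. Of 26 goblet cell genes 4 rose, Slc26a4, Fxyd4, Itln1 and Scin, and 0 fell, with 7 higher without IL4-2 and 2 without any other array except Null-2. Itln1, a lectin of goblet cells, had 16.4, 184 and 2.70 against 2342, 133 and 813, so its groups overlapped. It rose by 3.74 ± 0.95 (limma adjusted p = 0.0488), and its call was lost without Null-1 (3.44), Null-3 (3.04), IL4-1 (2.83), IL4-3 (3.58) or any IL-4d2 mouse (3.74). St6galnac2, which adds sialic acid to O-linked glycans of the mucin type, had 633, 708 and 703 against 1755, 1588 and 1437 (1.20 ± 0.11, limma adjusted p = 0.000155).

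Some metabolic and matrix-related genes rose outside these groups. Gatm, which begins creatine synthesis from arginine, went from 131, 194 and 84.2 to 469, 356 and 452 (1.59 ± 0.25). Igf1, a growth factor made by macrophages and fibroblasts, went from 985, 1365 and 1163 to 2470, 2970 and 2589 (1.19 ± 0.12). It was the 1 gene of 44 in the growth factor list that rose, while 6 fell (3 without Null-1 or IL4-3, 2 without Null-3). Wfdc17, a small protease inhibitor of macrophages, rose by 1.83 ± 0.19 and Hk3, a hexokinase of myeloid cells, by 1.10 ± 0.16. Steap3, an endosomal iron reductase, rose by 1.92 ± 0.32 on its brightest probe set, while its 2 others gave 0.25 and −0.34. Cyp1a1, the cytochrome P450 induced through the aryl hydrocarbon receptor, rose by 1.24 ± 0.20, Npr3, a clearance receptor of natriuretic peptides, by 1.17 ± 0.15, and Cdkn1a, a cell cycle inhibitor, by 0.99 ± 0.12. Genes of dividing cells rose beside Cdkn1a: Mki67 by 0.96 ± 0.24, Top2a by 0.79 ± 0.20 and Cdca8 by 0.90 ± 0.18. In the cell cycle list of 45, 4 rose and 0 fell (8.89% called, beside 6.3% of all genes). The 4 were 1 without Null-1, Null-3 or IL4-2, 2 without IL4-1, IL4-3 or any IL-4d2 mouse, and 8 without Null-2. The list's median was 0.29 (−0.15 and −0.48 on the other scales).

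Of the genes in none of the 78 lists, 361 rose and 408 fell. Those named next were chosen after their values were seen, because they kept their calls in each fit with 1 array left out. Tfec, a transcription factor of myeloid cells, had 105, 154 and 116 against 477, 421 and 397 (1.68 ± 0.22). Ly6i, a surface protein of monocytes, had 274, 498 and 216 against 1216, 1185 and 1463. Chia1, the acidic mammalian chitinase, had 1677, 2320 and 2473 against 5963, 5625 and 5800 (1.44 ± 0.14). In all 3 the groups were far apart relative to the spread within them. Slamf8, a myeloid receptor, rose by 1.67 ± 0.26 and Rgs1, which shortens chemokine receptor signals by 1.68 ± 0.29. Of those that fell, Lrrn3, a leucine-rich repeat protein, had 580, 510 and 583 against 132, 166 and 191 (−1.69 ± 0.16). Gria1, a glutamate receptor subunit, had 331, 238 and 283 against 54.2, 77.5 and 125 (−1.61 ± 0.28), and Osr1, a transcription factor of mesenchyme, had 229, 301 and 362 against 95.1, 100 and 138 (−1.30 ± 0.22). Each of the 3 had its highest IL-4 mouse below its lowest control mouse. Azgp1 and Ttc29 were lower too, by log2 differences of −1.37 ± 0.22 and −1.12 ± 0.17.

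The largest decreases were of muscle and fat genes, and most of these calls were lost in at least 1 fit with an array left out. Myh1, a fast skeletal myosin, had signals of 16780, 1594 and 94.1 in control mice and 35.6, 17.9 and 18.4 in IL-4 mice. Car3, the carbonic anhydrase abundant in muscle and in fat, had 21000, 8803 and 3804 against 903, 133 and 1233. Adipoq, the fat hormone adiponectin, had 1747, 698 and 529 against 111, 39.1 and 230. The brightest signal of trpn, a bacterial gene among the array's controls, was 55.8 on the 6 arrays. It came from Null-2, and on the IL-4 arrays the brightest was 8.96, 6.96 and 11.9, so 55.8 is a cautious floor for them. All IL-4 signals of Myh1, Myot, Trdn, Cidec, Fabp1 and Asgr1 lay below 55.8, and their fitted log2 differences are not taken as a measured size. A fold written as at least sets the mean log2 signal of the control mice against 55.8. For Myh1 that fold was at least 24.4, for Trdn at least 5.88 and for Myot at least 3.88. In Myh1, Car3 and Adipoq Null-1 was the highest array, and Null-3, the lowest control, was still above the IL-4 mice. The log2 differences were −5.20 ± 1.30, −4.00 ± 0.86 and −2.88 ± 0.66 (limma adjusted p = 0.0464, 0.0253 and 0.0322).

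Their calls were lost as arrays were left out. Myh1 was called in 1 of 9 such fits, that without Null-3, where the value was −7.05. It was −3.43 without Null-1, −5.12 without Null-2, between −5.09 and −5.40 without an IL-4 mouse and −5.20 without an IL-4d2 mouse. Car3 lost its call without Null-1 (−3.39), Null-2 (−4.01) or IL4-2 (−3.06). Adipoq lost its call without Null-1 (−2.38), Null-2 (−3.03), IL4-1 (−2.92) or IL4-2 (−2.32). Actc1, cardiac actin, at −2.28 ± 0.43, was not called without Null-1 (−1.87), and Tcap, a sarcomere protein, at −2.27 ± 0.45, was not called without IL4-2 (−2.08). Trdn, triadin of the calcium release unit, at −2.55 ± 0.55, lost its call without Null-1 (−1.85), IL4-1 (−2.65), IL4-2 (−2.39) or IL4-3 (−2.61).

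Sln, Myot and Cox8b, which encode a calcium pump inhibitor, a sarcomere protein and a respiratory subunit of muscle, lost their calls in 7, 7 and 8 of the 9 fits. Sln, at −2.78 ± 0.71 (−0.0047 on its other probe set), was called only without Null-3 or IL4d2-2, and was −2.11 without Null-1 and −2.14 without IL4-2. Myot, at −3.53 ± 0.89, was called only without Null-1 (−2.19) or Null-3 (−4.66). Cox8b, at −2.45 ± 0.59, was called only without Null-3 (−3.05), and was −1.63 without Null-1. Cidec, a fat droplet protein, kept its call in every such fit, with 467, 263 and 214 against 50.4, 46.2 and 34.4, at least 5.33-fold higher in control mice (limma adjusted p = 0.00271).

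**Figure D4:**
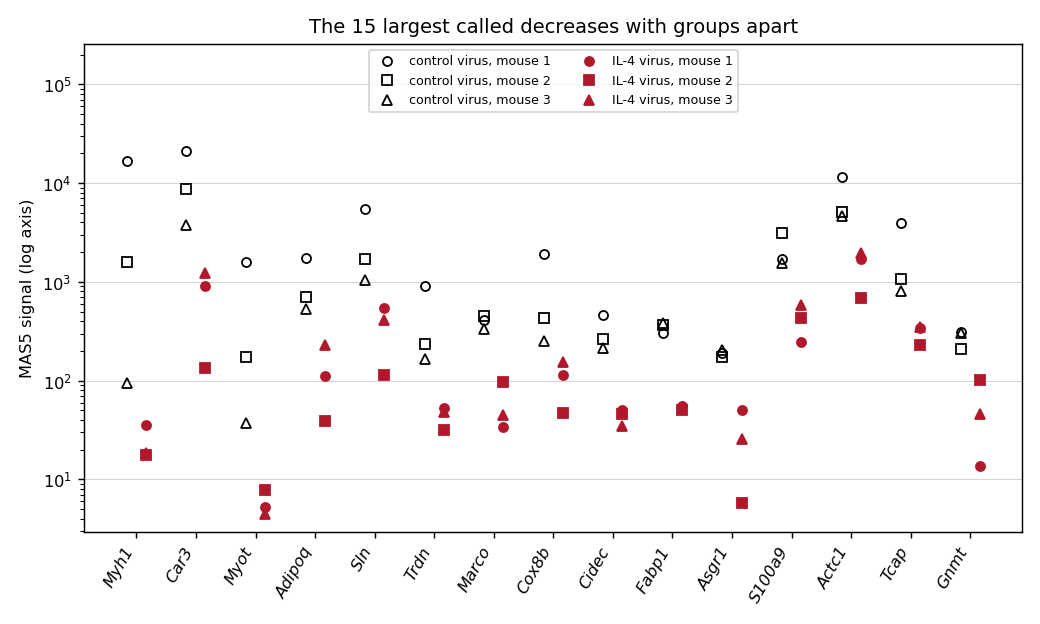
MAS5 signal on a log axis for the 15 called genes with the largest decrease, 1 point per mouse, open black for the 3 control mice and filled red for the 3 IL-4 mice. Muscle genes such as Myh1 spread over orders of magnitude among control mice, with Null-1 highest, whereas the control mice of Fabp1 and Marco lie close together; the genes were chosen among those whose groups do not overlap.

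As lists, 3 of 28 skeletal muscle, 4 of 26 heart muscle and 4 of 21 fat genes fell and 0 rose, with medians of −2.47, −1.81 and −0.99. The skeletal count was 17 without Null-3, 1 without Null-1 or Null-2, and 0 without IL4-2. The heart count was 0 without Null-1, 2 without Null-2, 8 without IL4d2-2, and 1 without any IL-4 mouse, IL4d2-1 or IL4d2-3. The fat count was 1 without Null-1, Null-2 or IL4-2. The mean log2 signal of the heart list ranged from 9.06 to 10.31 in control and from 7.07 to 8.44 in IL-4 mice, and that of the fat list from 8.13 to 9.27 and from 7.0 to 7.83. The sources used here do not say how much heart, fat and chest muscle was taken with each lung, and its part in these values was not tested. In smooth muscle, 11 of 25 genes fell and 0 rose, with a median of −0.79. That count was 4 without Null-1 or Null-2, 6 without Null-3, 7 without IL4-2 or IL4-3, and 2 with Null-1 and IL4-2 both left out. Myh11, the smooth muscle myosin, had 1537, 1976 and 1517 against 624, 232 and 552 (−1.91 ± 0.33), with IL4-2 lowest. Pi16, a marker of fibroblasts around vessels, had 923, 522 and 322 against 198, 36.4 and 133 (−2.22 ± 0.48), and lost its call without Null-1 (−1.84) or Null-2 (−2.25).

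Several decreases were neither of muscle nor of fat. Marco, a scavenger receptor of alveolar macrophages, had 411, 450 and 330 against 34.3, 96.2 and 44.7 (−2.55 ± 0.29). Fabp1, the liver-type fatty acid binding protein, had 305, 369 and 382 against 55.4, 50.3 and 54.4, at least 6.28-fold higher in control mice (limma adjusted p = 0.000206). S100a9, a calgranulin of neutrophils, had 1712, 3151 and 1554 against 247, 427 and 579 (−2.32 ± 0.36). All 3 had separate groups and kept their calls in every fit with 1 array left out. S100a8, the partner of S100a9, fell by 1.97 ± 0.42 on the log2 scale, and lost its call without Null-2 (−1.67), Null-3 (−2.09), IL4-1 (−1.52) or IL4-2 (−2.10). Of 15 neutrophil genes only these 2 fell, and 1 rose, Lcn2, by 1.03 ± 0.23, with a list median of −0.14. Lcn2 was not called without Null-1, Null-3, any IL-4 mouse or IL4d2-1. The list's mean log2 signal was 7.809, 8.066 and 7.834 in control mice and 7.414, 7.529 and 7.999 in IL-4 mice. IL4-3 thus lay within the control range, so a fall of neutrophil genes as a list is not shown. Asgr1, a chain of the asialoglycoprotein receptor, had 192, 174 and 206 against 49.9, 5.75 and 25.7, at least 3.41-fold higher in control mice (limma adjusted p = 0.00686). Gnmt, a glycine methyltransferase, had 309, 208 and 306 against 13.5, 101 and 46.5 (−2.25 ± 0.41). Treml4, a myeloid receptor, fell by 1.36 ± 0.21.

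Detoxification enzymes had, by count, the most members called lower of the 78 lists. Of 61 members measured, 19 fell and 2 rose (34.4% called, beside 6.3% of all genes), with a median of −0.37. The smaller smooth muscle list, with 11 of 25 lower (44.0%), had a larger share. The 19 were 9 without Null-1, 12 without IL4-3 and 9 with Null-1 and IL4-2 both left out. Pon1, an esterase that circulates with high-density lipoprotein, is outside the list and fell from 4261, 3056 and 3692 to 924, 691 and 1109 (−2.01 ± 0.16, limma adjusted p = 8.29e-05). Gstm1, a glutathione transferase, had 6011, 4561 and 5630 against 2743, 2265 and 2567 (−1.09 ± 0.11). Gsta2, of the alpha class, had 996, 800 and 1056 against 457, 479 and 361 (−1.11 ± 0.13). The groups were separate for all 3, and Null-2 was the lowest control each time. Gstm2 fell by 1.01 ± 0.11 and Gsta3 by 1.01 ± 0.14, and near-identical sequence within these transferase classes may make probe sets share signal. Mgst3, a microsomal transferase, fell by 0.83 ± 0.09, Aox3, an aldehyde oxidase, by 0.71 ± 0.11, Aldh2, the mitochondrial aldehyde dehydrogenase, by 0.58 ± 0.09, and Ephx1, an epoxide hydrolase, by 0.57 ± 0.09.

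Further enzymes of the same kind were among the 10 bright genes with the smallest p. Gstk1, the peroxisomal and mitochondrial transferase, had 2962, 2654 and 2943 against 1323, 1587 and 1479 (−0.96 ± 0.09). Dcxr, which reduces xylulose and carbonyls, had 4172, 3925 and 4171 against 2154, 2016 and 2337 (−0.91 ± 0.08). Ptgr1, which inactivates leukotriene B and other lipid mediators, had 2337, 2042 and 2188 against 1136, 1255 and 1206 (−0.86 ± 0.08). In these the spread within a group was a small part of the difference. The 2 list members that rose were Gclc, the rate-limiting enzyme of glutathione synthesis, by 0.89 ± 0.14, and Hmox1, the stress-inducible haem oxygenase, by 0.67 ± 0.12, which was −0.10 after scaling to the poly-A controls. Club cells of the airway carry many such enzymes. Of 22 club cell genes 6 fell and 0 rose, and the mean log2 signal of that list was between 12.25 and 12.57 in control mice and 12.46, 11.52 and 12.23 in IL-4 mice. The part of club cells in the enzyme result was not tested. Cyp4b1, a club cell cytochrome P450, fell by 0.67 ± 0.10 and Cldn10, a claudin of these cells, by 0.92 ± 0.14.

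In lists of energy metabolism 14.7% (respiratory chain), 14.8% (fatty acid oxidation) and 20.6% (glycolysis and gluconeogenesis) were called, against 6.3% of all genes. Of all genes 3.06% were called lower and 3.24% higher. In the same order, 0, 1 and 4 of these calls were kept in every fit with 1 array left out. Of 34 genes of the mitochondrial respiratory chain 5 fell and 0 rose, with a median of −0.23. The 5 were 0 without Null-1, 2 without Null-2, and 1 without IL4-1, IL4-2 or any IL-4d2 mouse. Of 27 genes of fatty acid oxidation 4 fell and 0 rose (1 without Null-1 or IL4-1, 2 without IL4-2 or IL4d2-1). Acaa2, a thiolase of that pathway, had 2982, 2557 and 2234 against 1663, 1678 and 1701 (−0.61 ± 0.10). Of 34 genes of glycolysis and gluconeogenesis 4 rose (2 without Null-3), Fbp1, Hk3, Pfkfb2 and Pgam1, and 3 fell (5 without Null-3). Ldhb, a lactate dehydrogenase chain, had 3921, 3818 and 3713 against 2479, 2280 and 2363 (−0.68 ± 0.07), and Pdk1, which restrains pyruvate entry to mitochondria, had 1222, 1208 and 1167 against 701, 716 and 574 (−0.84 ± 0.10). The groups were separate for each of the 3 genes. Lrat, which stores retinol as esters, fell by 1.12 ± 0.12 and Rbp4, the retinol carrier, by 0.69 ± 0.10. They were the 2 called genes of 21 in the list of retinoid handling (9.52%, beside 6.3% of all genes).

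Immediate early genes, which are transcribed within minutes of a stimulus, fell more often than they rose, 9 against 3 of 37. With Null-1 and IL4-2 both left out, 8 fell and 0 rose. The 3 that rose were Egr2, Gadd45g and Myc, and they became 1 without Null-1, Null-2 or IL4-3, and 0 without Null-3, IL4-1 or IL4-2. Egr1, a zinc finger transcription factor, had 4826, 9007 and 9221 against 2660, 2860 and 2357 (−1.49 ± 0.25). Nr4a1, an orphan nuclear receptor, had 2198, 3313 and 4228 against 949, 875 and 824 (−1.81 ± 0.19). The IL-4 mice were tight in both while Null-1 was lower than the other controls. Fos fell by 0.75 ± 0.14, Ier2 by 0.90 ± 0.11 and Dusp1, a phosphatase of MAP kinases, by 0.72 ± 0.12. Of 20 circadian clock genes 3 fell (1 without Null-1) and 1 rose, Bhlhe40, whose call was lost without Null-1, Null-3 or any IL-4 mouse, while 2 rose without IL4d2-1. Dbp, an output factor of the clock, had 7130, 7187 and 8749 against 4011, 4372 and 4336 (−0.85 ± 0.10), and Nr1d1, a clock repressor, fell by 1.11 ± 0.20 and lost its call without Null-1 (−0.94). The sources used here give no hour of killing, and its part in these genes was not tested. Nr3c2, the mineralocorticoid receptor, had 652, 486 and 574 against 188, 207 and 225 (−1.39 ± 0.14).

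Genes of vessels and lung lineage factors moved in both directions. Of 35 endothelial genes 4 fell (1 without Null-3) and 2 rose, Vwf, the clotting protein of endothelium, by 0.50 ± 0.10 and Cldn5, a claudin of vessels, by 0.45 ± 0.09. The 2 became 1 without Null-2 and 0 without Null-1 or IL4-2, and the list's median was −0.14. Esm1, a proteoglycan of endothelial tip cells, had 1679, 1770 and 2538 against 446, 634 and 696 (−1.73 ± 0.18). Ednrb, the endothelin receptor of capillary endothelium, had 2380, 2187 and 2352 against 907, 1478 and 1405 (−0.89 ± 0.15). The groups did not overlap in either. Clec14a, an endothelial lectin, fell by 0.70 ± 0.09 and Efna1, an ephrin, by 0.62 ± 0.11. The list of vascular growth and Notch signalling had 5 of 41 lower and 0 higher (2 without Null-3, 3 without IL4-1 or IL4-3), with a median of −0.02, close to that of all genes. Of 52 transcription factors of lung and lung cell lineages, 9 fell (4 without Null-1, 2 without Null-3) and 4 rose (2 without Null-3, IL4-2 or IL4-3). Meox2, a homeobox factor of mesenchyme and vessels, fell by 0.57 ± 0.09. Tbx4, a T-box factor of lung mesenchyme, fell by 0.69 ± 0.14 and was not called without Null-1 (−0.63) or Null-3 (−0.68). Gata6, of endoderm and smooth muscle, fell by 0.67 ± 0.09 on its brightest probe set, while its 2 others gave −0.22 and 0.19.

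Other signalling genes fell as well. Cckar, the cholecystokinin receptor, had 2032, 1796 and 1981 against 1019, 687 and 779 (−1.23 ± 0.13). Dixdc1, a partner in Wnt signalling, had 1575, 1617 and 1893 against 688, 708 and 834 (−1.17 ± 0.10). Pigp, of the pathway that makes lipid anchors of surface proteins, had 2247, 2347 and 2383 against 1359, 1330 and 1279 (−0.81 ± 0.07, limma adjusted p = 0.000118). In all 3 the highest IL-4 mouse was well below the lowest control mouse. Lpar3, a receptor of lysophosphatidic acid, fell by 1.26 ± 0.13, Igfbp6, which binds insulin-like growth factors, by 1.03 ± 0.17, and Nbl1, an antagonist of bone morphogenetic proteins, by 0.72 ± 0.13. Tppp3, a microtubule protein of ciliated cells, fell by 0.84 ± 0.12. The ciliated list had 2 of 23 lower and 0 higher (8.7% called, beside 6.3% of all genes), with a median of −0.49. In that list 11 fell without IL4-1, 1 without any other single array. In the alveolar lists, 4 of 24 type 2 genes rose and 0 fell (1 rose without Null-1, IL4-2 or IL4-3, 2 without Null-3 or IL4-1), with a median of 0.22 that was −0.23 and −0.58 on the other scales. Of 19 type 1 genes 4 fell and 0 rose, and 0 fell without Null-1, Null-3 or IL4-1, 1 without IL4-3, and 2 without Null-2, IL4d2-1 or IL4d2-2. The mean log2 signal of the ciliated list was between 10.24 and 10.53 in control and 10.36, 9.36 and 9.92 in IL-4 mice.

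In 10 lists limma called 0 genes. These were cytotoxic cells (16 genes, 0 at an unadjusted p under 0.05), basal cells (13, 1), neuroendocrine cells (14, 0), lymphatic endothelium (11, 4), Schwann cells (13, 4), red blood cells (8, 1), thymus (12, 0), thyroid (7, 1), the kynurenine pathway (12, 2) and cytosolic ribosomal proteins (31, 2). Their medians lay between −0.17 in lymphatic endothelium and 0.28 in the kynurenine pathway, and those above 0 turned below 0 on both other scales. A list without a call is not shown to be unaltered.

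**Figure D5:**
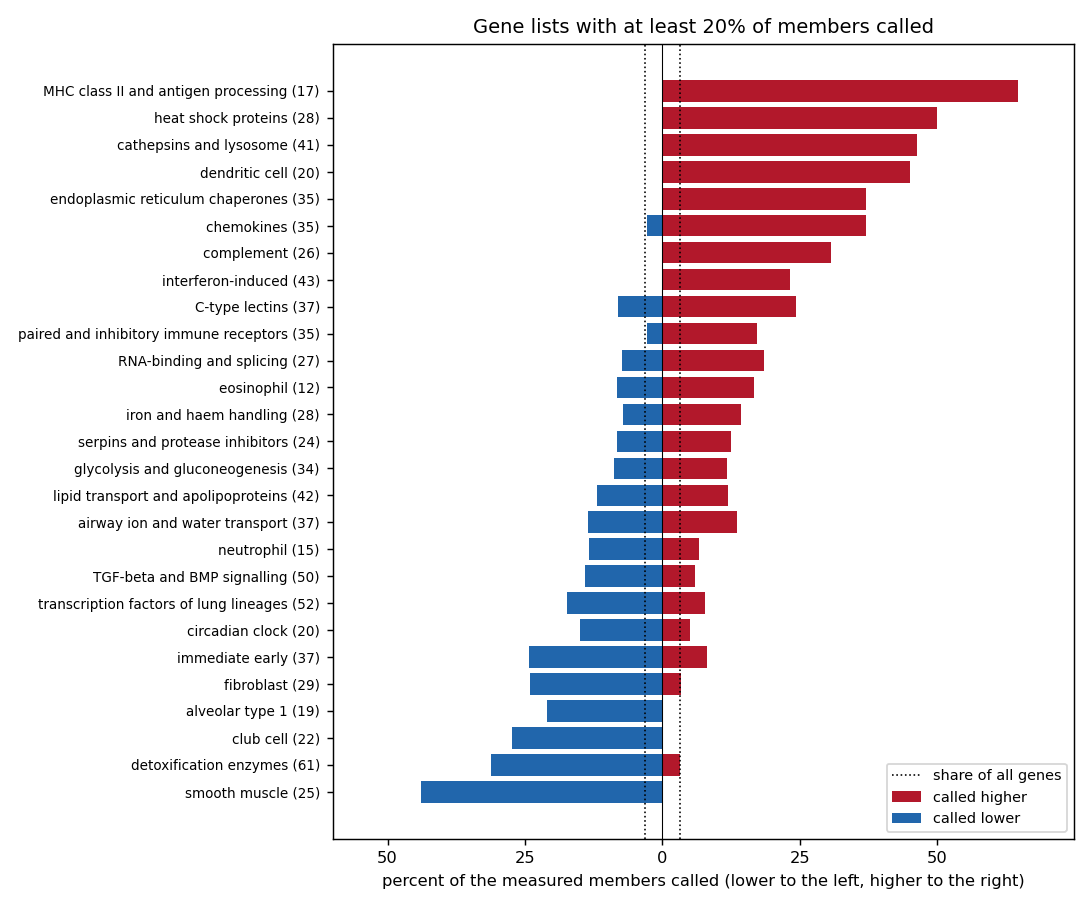
Bars give the percent of a list's measured members (number in parentheses) that limma called higher (red, to the right) or lower (blue, to the left), for the 27 lists outside the macrophage, B cell, plasma cell and matrix lists with at least 10 members and at least 20% of them called; dotted lines mark the share of all genes, 3.24% and 3.06%. MHC class II (11 of 17) and heat shock (14 of 28) lead on one side, with medians of −0.08 and −0.22 after scaling to the poly-A controls, and smooth muscle (11 of 25) and detoxification (19 of 61) on the other.

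IL-4 was also tested against IL-4d2 in the same fit, which called 158 of 18193 genes (0.868%) and 244 of 45037 probe sets (0.542%). That test shares its IL-4 arrays with the comparison against control, so the values are set side by side and no overlap is drawn from them. The probe set of Il4 itself had 1172, 945 and 499 in IL-4d2 mice, each above every IL-4 mouse, and the log2 difference of −1.25 did not pass the test (limma adjusted p = 0.185). Rnase2a had 40.6, 22.0 and 28.5 in IL-4d2 mice, below each IL-4 mouse, and the log2 difference between IL-4 and IL-4d2 was 5.92 (limma adjusted p = 1.6e-05). Its IL-4d2 signals all lay below 55.8, the brightest trpn signal of the control and IL-4 arrays, so that 5.92 is not taken as a measured size. On the IL-4d2 arrays themselves the brightest trpn signal was 7.36, 9.95 and 24.8. Fbp1 had 110, 155 and 119 in IL-4d2 mice (difference 2.86, adjusted p = 0.000879), and Pon1 had 2771, 3404 and 3391 (−1.81, adjusted p = 0.00108). For these 3 genes the IL-4d2 mice lay within or near the range of the control mice. Slc26a4, Mmp12, Arg1, Marco and S100a9 differed as well, by 3.33, 3.89, 3.63, −2.34 and −2.45 (adjusted p = 0.0082, 0.000361, 0.0015, 0.00545 and 0.0127).

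The heat shock genes read otherwise. Hspa1b had 12280, 18570 and 11090 in IL-4d2 mice, a log2 difference of 2.65 from control (limma adjusted p = 0.00012), and IL-4 exceeded IL-4d2 by 0.73 (adjusted p = 0.198). Dnaja1 had 9375, 10310 and 9039 in IL-4d2 mice, and the difference between the cytokine forms was 0.14 (adjusted p = 0.578). Cirbp had 439, 429 and 448 (−0.29, adjusted p = 0.244), and Jchain had 9134, 19090 and 7369 (−0.17, adjusted p = 0.896). In these 4 genes both cytokine groups lay on the same side of every control mouse, and the difference between the forms did not pass the test, which does not show that they act alike. Egr1 had 1303, 701 and 899 in IL-4d2 mice, lower than in IL-4 mice, with a difference of 1.47 between the forms (adjusted p = 0.0245).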

How the data were processed

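RNA of whole mouse lung was measured on 9 Affymetrix arrays, of which 3 IL-4 and 3 control virus arrays make up the comparison. The authors deposited array intensities (signal values) on a linear scale, made with MAS5 in Affymetrix Expression Console 2.0, per the submitters' processing notes, which also name GCOS. The deposited signals had the same trimmed mean of 500 on every array, so differences are relative to it. Such arrays give no count depth, and 3 arrays a group limit the precision.

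From these values, log2(signal + 16) of 45037 probe sets was fitted with limma 3.58.1 in R 4.3.3 (lmFit, eBayes with a mean-variance trend). The fit held all 9 arrays, had 6 residual degrees of freedom and no covariates, and its p-values were two-sided and Benjamini-Hochberg adjusted, with a threshold of 0.05. Adding 16 makes the changes of dim genes look smaller. Each ± after a log2 difference is the SE of that fit. GEO's platform annotation gave 1 symbol to 34945 probe sets and several to 932, while 9211 are unnamed here. The brightest probe set over the 9 arrays stood for each of 18193 genes. Of the 1895 called probe sets, 252 had no single symbol. Of 2206 genes written into the 78 lists, 1996 were matched.

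The members and lists were chosen with earlier results of these data known. Named genes are the 15 called and non-overlapping genes with the largest change in each direction, with and without the macrophage, B cell, plasma cell and matrix lists, the 10 bright ones with the smallest p in each direction, 3 or fewer called members of every list, and Il4, Il4ra and Stat6. The first 3 groups leave out unnamed loci, predicted genes and antigen receptor segments. Other called members and genes outside the lists that are named were chosen after their values were seen. The alternatives were 6 arrays only, filters on dim probe sets, other pseudocounts and scalings, no trend, a replicate block, array weights, the mean of a gene's probe sets, and arrays left out. Promoters were the 250 bases before each start in RefSeq, assembly GRCm38.p6, and other coordinates were not used. Tested on simulated data for this comparison with 45037 probe sets, the fit called 28 of 100 changes of log2 size 1 and 70 of 100 of size 2, with 6 false calls. Tables and figures used Python 3.11.15, numpy 2.4.6, pandas 2.3.3 and matplotlib 3.10.9. The p-values measure only the spread between these mice.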

Additional observations from a re-analysis of the deposited data

Results flagged for a closer look

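Control transcripts that the comparisons do not use were brighter on the IL-4 arrays. The mean log2 signal of the hybridisation controls was 0.445 higher on the 3 IL-4 arrays than on the 3 control virus arrays, and that of the poly-A controls, which are added to the RNA before labelling, was 0.786 higher (exact two-sided permutation p = 0.1 for each, the smallest that 3 against 3 arrays allow). Their part in the differences between the groups was not tested.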

How the results depend on the processing

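With a p threshold of 0.05, the comparison called 1895 probe sets, 1146 genes, 512 probe sets with at least a 2-fold change and 377 distinct list members. These 4 counts were 3616, 2153, 1294 and 447 after scaling to the hybridisation controls, 17582, 9222, 6890 and 1066 after scaling to the poly-A controls, 368, 198, 258 and 105 without a variance trend, and 544, 313, 251 and 154 with Null-1 and IL4-2 both left out. With the 6 arrays alone 1083 probe sets and 658 genes were called, and with a pseudocount of 64, 336 probe sets changed at least 2-fold. Leaving out 1 array gave 871 to 1533 probe sets, 521 to 922 genes, 323 to 507 probe sets with a 2-fold change and 221 to 342 list members, and the lowest of each was without Null-1. After scaling to the poly-A controls, the differences of 9 named genes were below 0: Bag3 (−0.055), Cxcl16 (−0.28), Hmox1 (−0.10), Hspd1 (−0.08), Npc1 (−0.21), Pim1 (−0.11), Tcirg1 (−0.055), Il4ra (−0.62) and Stat6 (−0.67), and after scaling to the hybridisation controls Il4ra and Stat6 were at −0.28 and −0.32. Of 164 named and called genes that were followed through the 9 fits with 1 array left out, 144 were called in each. Of all 1146 called genes, 420 were. Some genes were named because they kept their calls, so the share among named genes does not measure how stable the calls are. Of the followed genes, 65 lost their call without a variance trend and 15 with the mean of a gene's probe sets. On the hybridisation scale 34 lost it, and on the poly-A scale 40, besides those whose sign changed. With Null-1 and IL4-2 both left out 40 lost it, among them Ccl17, Ccl8, H2-Ab1, Slamf8 and Batf. With the mouse number as a replicate block, 1720 probe sets, 1045 genes, 498 with a 2-fold change and 382 list members were called, and of the named genes Itln1 lost its call and no other gained or lost one. The sources used here do not say that the numbers pair mice. Deviations of same-numbered control and IL-4 mice correlated by 0.02, 0.00475 and −0.01, which cannot decide whether they do. Quantile normalization, a pseudocount of 1, both filters, array weights and the mean of a gene's probe sets kept the counts within 1.5 times. For dim probe sets, signal over background limits the values, and no detection calls were used here.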
